A study of Mus musculus with 6 samples.

Results

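The replication-dependent histone genes were examined in RNA-seq libraries of the mouse lacrimal gland (LG), which produces the aqueous part of the tear film. Members were all rows of the deposited gene table whose symbol carries the older mouse histone naming, from Hist1h through Hist4h, and 43 of the 12491 genes in the table met this rule. They comprised 3 H1, 13 H2A, 11 H2B, 6 H3 and 10 H4 genes, of which 33 belong to the Hist1 cluster on chromosome 13, 9 to the Hist2 cluster on chromosome 3 and 1 to Hist3 on chromosome 11. No member came from Hist4. GENCODE M21 lists 67 protein-coding genes under these symbols, and the other 24 were not analysed here.

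Libraries came from 3 T2DM and 3 vehicle LG samples of C57BL/6 mice, whose age the labels give as 24 weeks. The T2DM group received a high-fat diet (HFD) and streptozotocin (STZ), a toxin of pancreatic beta cells. The methods of the study name male mice, whose HFD began weeks before the injections. It went on until collection at 24 weeks after the last injection, which makes these mice older than the labels state. The vehicle group was fed normal chow and injected with citrate buffer, so that diet and STZ cannot be told apart. Poly(A) RNA was sequenced, and values are FPKM, the fragments of a gene relative to the length of its exons and to all fragments mapped in that library. Neither the labels nor the methods say if each library holds the glands of a single mouse or a pool, and p-values here measure only the spread between these libraries.

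Nucleosomes wrap DNA around an octamer of the core histones H2A, H2B, H3 and H4, and the linker histone H1 binds where DNA enters and leaves it. Most histone protein of a dividing cell is made from clustered, intronless genes that are transcribed during S phase. Their mRNAs usually end in a conserved stem-loop, bound by the stem-loop binding protein Slbp, in place of a poly(A) tail. Cells that have stopped dividing rely more on replacement histones, whose mRNAs are polyadenylated, and some clustered genes such as Hist1h2bc, Hist1h1c and Hist2h2be are also known to make polyadenylated mRNA in differentiated cells. A library selected on poly(A) thus samples the polyadenylated share of these transcripts, together with any carry-over of tail-less RNA, and total histone mRNA was not measured.

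The stem-loop was searched in the GENCODE M21 transcripts of all members, since it bears on which transcripts poly(A) selection can take. The search used a fixed pattern of 16 bases with some variable positions, so that a stem-loop of other letters would be missed. A match was present in 33 of the 43 genes, against 0.31% of all 21901 protein-coding genes. Shown here are the stem-loops of the 7 genes that carry one among the 10 lower in T2DM, followed by 2 genes that did not pass the test. Each is written 5′ to 3′ on the strand of the gene, with 5 flanking bases on each side where the transcript extends that far and with the 16 bases of the stem-loop in capitals.
Hist1h1e: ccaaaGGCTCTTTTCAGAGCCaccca
Hist1h2bg: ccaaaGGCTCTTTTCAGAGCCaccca
Hist2h3c2: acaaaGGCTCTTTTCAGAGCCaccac
Hist1h4h: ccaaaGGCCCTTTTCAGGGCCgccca
Hist1h4j: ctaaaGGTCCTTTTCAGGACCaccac
Hist1h4m: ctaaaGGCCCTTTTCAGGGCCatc
Hist2h4: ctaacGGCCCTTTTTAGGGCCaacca
Hist1h4i: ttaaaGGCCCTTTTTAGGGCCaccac
Hist2h2aa2: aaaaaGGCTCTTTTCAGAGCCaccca
On GRCm38 these lie at chr13:23621777-23621802 for Hist1h1e, chr13:23571838-23571863 for Hist1h2bg, chr3:96238480-96238505 for Hist2h3c2, chr13:23531453-23531478 for Hist1h4h and chr13:21735432-21735457 for Hist1h4j. Those of Hist1h4m, Hist2h4, Hist1h4i and Hist2h2aa2 lie at chr13:21812124-21812147, chr3:96262934-96262959, chr13:22040961-22040986 and chr3:96239779-96239804. Hist1h1e, Hist2h3c2, Hist2h4, Hist1h4i and Hist2h2aa2 are on the minus strand. The letters of the stem differed by class. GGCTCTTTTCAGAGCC was found in 19 genes of H1, H2A, H2B and H3, and in no H4 gene. The H4 genes carried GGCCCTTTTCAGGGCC in 5 cases, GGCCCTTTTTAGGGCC in Hist1h4i and Hist2h4, and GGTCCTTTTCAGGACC in Hist1h4b and Hist1h4j. Hist2h4 and Hist1h4i therefore share the same stem-loop, although the first was lower in T2DM and the second did not pass the test. No match was found in Hist1h2bc, Hist1h2bq and Hist2h3b, the remaining genes that were lower, nor in 7 others, as the GENCODE transcripts of these genes are written.

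Of the 43 histone genes, 35 reached a mean of 0.5 FPKM in at least one group and were tested with limma on log2(FPKM + 1), with Benjamini-Hochberg adjustment over all 12135 tested genes. In the T2DM group 10 of the 35 were lower and none was higher at an adjusted p of 0.05, whereas 1.7% of all tested genes were lower and 10.5% were higher. At an unadjusted p of 0.05, 19 were lower and 1 was higher, against 4.57% lower and 28.5% higher of all genes. The 10 genes were the linker histone gene Hist1h1e, the H2B genes Hist1h2bc, Hist1h2bg and Hist1h2bq, the H3 genes Hist2h3b and Hist2h3c2, and the H4 genes Hist1h4h, Hist1h4j, Hist1h4m and Hist2h4. No H2A gene passed the test in either direction, although Hist2h2aa2 was lower once libraries were rescaled by the median of ratios or the upper quartile of genes. The median log2 fold change was -0.41 over the 35 genes and 0.16 over all tested genes, and 28 of the 35 were below 0, as were 25.2% of all tested genes. In 19 of the 35, every T2DM library was lower than every vehicle library, and in 2 every one was higher, against 6.1% and 33.8% of all tested genes. Some of the 35, such as Hist1h2bq and Hist1h4m, reached 0.5 FPKM in vehicle only, which favours lower values among tested genes. Without this filter the median log2 fold change was -0.32 over all 43 members and 0.15 over all genes, and the same 10 members were lower. Over the 43, the genes without overlap were still 19 and 2. Since the LG is a bulk tissue, fewer cells of a type and less RNA per cell cannot be told apart.

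**Figure D1:**
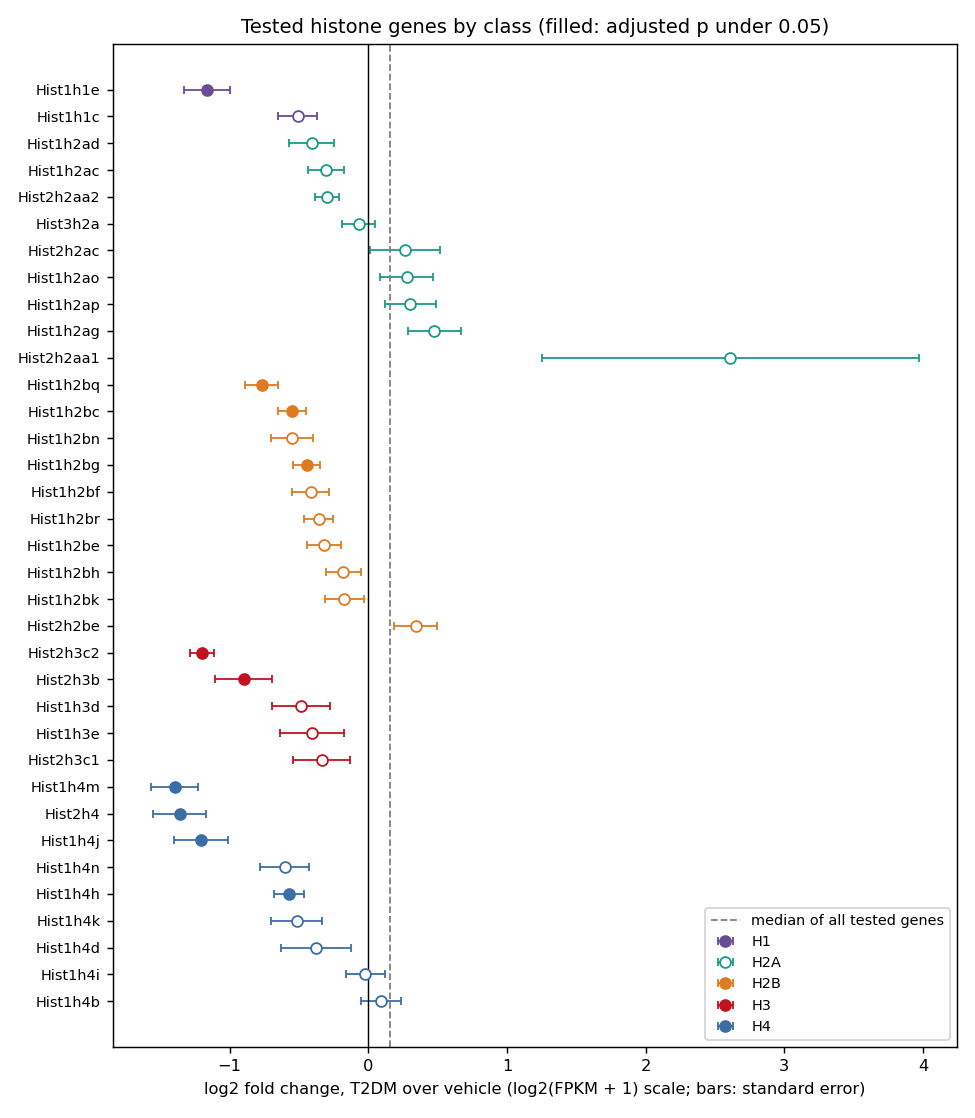
Log2 fold change of each of the 35 tested histone genes, T2DM over vehicle, on the log2(FPKM + 1) scale (horizontal axis), with genes grouped by class down the page. Points are estimates and bars their standard errors from limma, filled points passed an adjusted p of 0.05, and the dashed line is the median of all tested genes at 0.16. All 10 filled points lie at -0.44 or lower, and none belongs to H2A, of which Hist2h2aa2 passed only after the libraries were rescaled.

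With the thresholds used by the study, an unadjusted p of 0.05 and a fold of 1.5, here taken on the log2(FPKM + 1) scale, 8 histone genes were lower and none was higher, against 1.19% and 7.26% of all tested genes. They were Hist1h4n and the 10 genes named above without Hist1h2bc, Hist1h2bg and Hist1h4h, whose folds on that scale were under 1.5. The count was 15 lower and 1 higher with a pseudocount of 0.1 in place of 1, and 13 lower under rescaling by either the median of ratios or the upper quartile. The count at the adjusted p depended on single libraries. It was 6, 8 and 11 without T2DM replicate 1, 2 or 3, and 7, 6 and 1 without vehicle replicate 1, 2 or 3, and Hist2h3c2 was the gene that remained without vehicle replicate 3. Over all genes, the number lower in T2DM was 16 without that library, in place of 206. Hist1h1e, Hist1h2bq, Hist1h4j, Hist1h4m, Hist2h3c2 and Hist2h4 passed in each of the other 5 fits that left out 1 library. Of all 6 such fits, Hist1h2bc and Hist1h4h missed the threshold in 4 each, and Hist1h2bg and Hist2h3b in 5 each.

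Summed over class, the FPKM of H1, H2B, H3 and H4 lay lower in every T2DM library than in any vehicle library, and that of H2A did not. H3 genes together reached 8.94, 10.4 and 11.8 FPKM in T2DM replicates 1, 2 and 3, against 22.3, 22.2 and 22.7 FPKM in vehicle replicates 1, 2 and 3, a ratio of means of 0.464. H4 genes reached 14.9, 16.3 and 17.4 FPKM in T2DM and 33.1, 28.3 and 28.9 FPKM in vehicle libraries (ratio 0.537). For these core histone classes the groups stood well apart, with SDs of 1.4 and 1.3 FPKM in T2DM and 0.24 and 2.6 FPKM in vehicle (n = 3 each). The H1 sum was 20.0 ± 1.5 FPKM in T2DM and 31.4 ± 5.6 FPKM in vehicle (ratio 0.637), and the H2B sum was 61.6 ± 5.9 and 76.8 ± 5.7 FPKM (SD, n = 3 each, ratio 0.802). The H2A sum was 213.2, 191.6 and 199.0 FPKM in T2DM and 199.9, 179.8 and 130.7 FPKM in vehicle libraries (ratio 1.18), with overlap, and the ratio was 1.03 and 1.05 after the rescalings by median of ratios and by upper quartile. These sums carry no test, and the difference between classes was not tested.

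**Figure D2:**
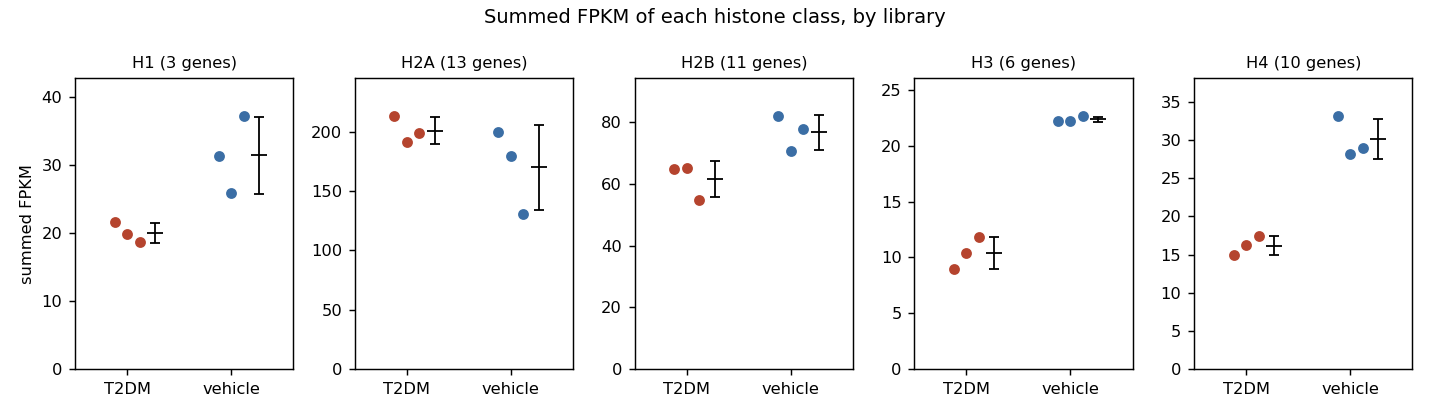
Summed FPKM of all genes of a histone class in each library (vertical axis from 0), with 1 panel per class, T2DM libraries in red and vehicle libraries in blue. Points are single libraries, and the bar beside them is the mean with its SD (n = 3). The groups do not overlap in H1, H2B, H3 and H4, whereas in H2A they overlap, and vehicle replicate 3 is the lowest of the 6 libraries at 130.7 FPKM.

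By cluster, 7 of the 26 tested Hist1 genes were lower (median log2 fold change -0.41), as were 3 of the 8 tested Hist2 genes (median -0.32). Hist1 genes summed to 85.7 ± 2.6 FPKM in T2DM and 128.2 ± 12.8 FPKM in vehicle (SD, n = 3 each), a ratio of 0.668, with no overlap between groups. Hist2 genes summed to 218.3 ± 11.6 FPKM in T2DM and 196.8 ± 38.1 FPKM in vehicle, with overlap, and their ratio of 1.11 turned to 0.966 and 0.980 after the rescalings. Of the Hist2 genes, the 3 H3 genes summed to 8.95 ± 0.67 FPKM in T2DM and 19.6 ± 0.60 FPKM in vehicle, without overlap. The 4 Hist2 H2A genes summed to 186.5 ± 9.4 FPKM in T2DM and 156.5 ± 35.5 FPKM in vehicle (SD, n = 3 each), with overlap. The only Hist3 member, the H2A gene Hist3h2a, was at 5.47 ± 0.55 FPKM in T2DM and 5.80 ± 0.81 FPKM in vehicle, and its exons overlap those of Trim17 on the same strand over 708 bases.

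Among the linker histones, Hist1h1c and Hist1h1e held nearly all of the H1 signal. Hist1h1e was at 0.859, 1.12 and 1.52 FPKM in T2DM and at 4.41, 2.92 and 4.23 FPKM in vehicle libraries, or -1.16 on the log2 scale (standard error 0.17, limma adjusted p = 0.0156). Hist1h1c, the H1 gene with the highest FPKM, was at 20.6, 18.4 and 16.9 FPKM in T2DM and at 26.4, 22.7 and 32.5 FPKM in vehicle libraries (-0.51 on the log2 scale, limma adjusted p = 0.0526). Libraries of the groups did not overlap for either gene, and Hist1h1c stood just outside the threshold. It passed under both rescalings of the libraries. Exons of Hist1h1e share 496 bases with those of the H2B gene Hist1h2be on the same strand, and reads there could be given to either gene. Hist1h1d stayed under the filter, at 0.165 ± 0.034 FPKM in T2DM and 0.321 ± 0.108 FPKM in vehicle (SD, n = 3 each).

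H2A mRNA was dominated by Hist2h2aa1 and Hist2h2aa2, neighbouring genes for the same type of core H2A. Hist2h2aa2 was at 103.0, 93.7 and 96.9 FPKM in T2DM and at 129.9, 115.7 and 116.5 FPKM in vehicle libraries (-0.30 on the log2 scale, limma adjusted p = 0.0588), so that the groups did not overlap. Hist2h2aa1 was at 92.3, 83.3 and 88.0 FPKM in T2DM and at 54.5, 51.0 and 0.0626 FPKM in vehicle libraries (2.61 on the log2 scale, standard error 1.36, limma adjusted p = 0.219). Every T2DM library lay above every vehicle library for this gene, and vehicle replicate 3 was far below the other vehicle libraries. All 100-base stretches of the Hist2h2aa2 transcript occur in that of Hist2h2aa1, and 88.1% of those of Hist2h2aa1 occur in Hist2h2aa2, so that most reads fit both. Hist2h2aa1 also shares 529 bases with exons of Gm20634 on the same strand, and reads there could be given to either gene. Summed, the pair reached 195.3, 176.9 and 184.9 FPKM in T2DM and 184.4, 166.8 and 116.6 FPKM in vehicle libraries. The opposite order of the single genes thus did not hold for their sum, in which the groups overlapped. Without the pair, all other histone genes together were at 128.3, 126.2 and 116.6 FPKM in T2DM and at 184.0, 160.1 and 180.6 FPKM in vehicle libraries, a ratio of 0.707, whereas with it the ratio was 0.935. Without vehicle replicate 3, Hist2h2aa1 was called higher in T2DM.

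**Figure D3:**
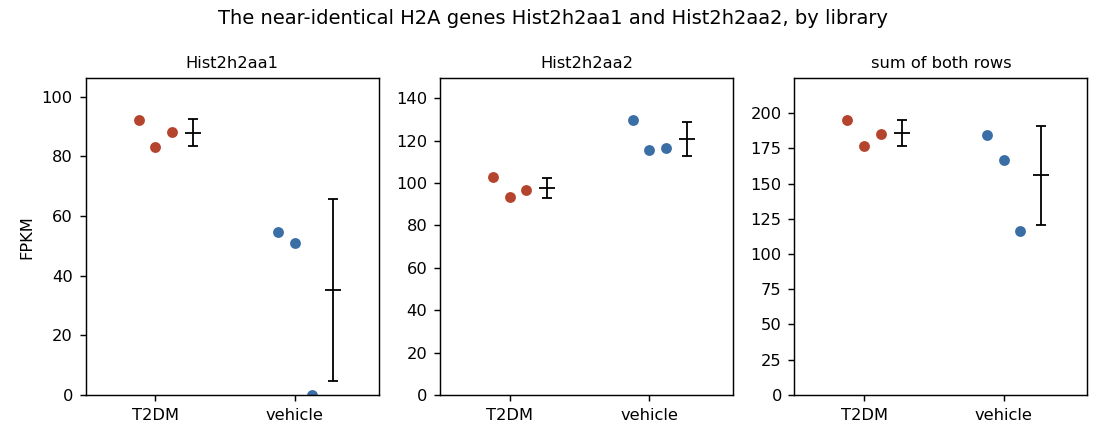
FPKM of Hist2h2aa1, of Hist2h2aa2 and of their sum in each library (vertical axes from 0), T2DM libraries in red and vehicle libraries in blue, with mean and SD beside them (n = 3). The single genes differ in opposite directions, vehicle replicate 3 is at 0.0626 FPKM for Hist2h2aa1, and the sums overlap.

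The remaining H2A genes were low. Hist1h2ad, with the lowest log2 fold change of the class, was at 0.190, 0.292 and 0.588 FPKM in T2DM and at 0.483, 0.871 and 1.06 FPKM in vehicle libraries (-0.41, limma adjusted p = 0.130), with overlap. Hist1h2ag, Hist1h2ao and Hist1h2ap share most of their sequence and together were at 7.64 ± 2.13 FPKM in T2DM and 5.53 ± 1.48 FPKM in vehicle (SD, n = 3 each), again with overlap. Hist1h2ag was the histone gene higher at an unadjusted p of 0.05, with a log2 fold change of 0.48. Without Hist2h2aa1 and Hist2h2aa2, the H2A sum was 15.5 ± 2.1 FPKM in T2DM and 14.2 ± 1.2 FPKM in vehicle. Hist1h2ae, Hist1h2ah, Hist1h2ai and Hist2h2ab were under the filter, all with overlapping groups.

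Of the H2B genes, 9 of 10 tested had a log2 fold change below 0. Hist1h2bc, the highest of them, was at 29.7, 34.1 and 27.8 FPKM in T2DM and at 46.3, 41.5 and 47.5 FPKM in vehicle libraries, a log2 fold change of -0.55 (standard error 0.10, limma adjusted p = 0.0241). Its 2-exon GENCODE transcript at chr13:23684199-23692908 on GRCm38 holds no match to the stem-loop. Hist1h2bg was at 6.10, 6.28 and 5.19 FPKM in T2DM and at 8.37, 8.10 and 8.46 FPKM in vehicle libraries (-0.44, limma adjusted p = 0.0316). Neither gene had overlapping groups. Hist1h2bq was at 0.0246, 0.0562 and 0.0168 FPKM in T2DM and at 0.799, 0.549 and 0.956 FPKM in vehicle libraries (-0.77, limma adjusted p = 0.0181), a ratio of means of 0.0424, the lowest of the tested members. Of its 100-base stretches, 94.8% occur in Hist1h2br, and summed with Hist1h2br and Hist1h2bk the level was 0.780 ± 0.266 FPKM in T2DM and 2.07 ± 0.25 FPKM in vehicle (SD, n = 3 each, ratio 0.378). The sum still passed the test, in a fit with near-identical rows added together that was chosen after the values were seen. At under 1 FPKM these are low levels, and the depth behind them is not known from FPKM.

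Hist2h2be, an H2B gene that shares no 100-base stretch with another gene, was the only tested gene of its class with a positive log2 fold change, also after both rescalings. It was at 26.5, 21.5 and 18.1 FPKM in T2DM and at 20.1, 15.3 and 15.8 FPKM in vehicle libraries (0.34 on the log2 scale, limma adjusted p = 0.170). The groups overlapped, and the difference did not pass the test. Without Hist2h2be, the H2B genes, all of Hist1, summed to 39.6 ± 3.6 FPKM in T2DM and 59.7 ± 3.8 FPKM in vehicle (SD, n = 3 each, ratio 0.663). Hist1h2bb was under the filter and was listed at 0 in all 3 T2DM libraries and in vehicle replicate 1.

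The H3 class held the gene with the smallest adjusted p of all members. Hist2h3c2, which encodes a replication-dependent core H3, was at 5.54, 5.10 and 4.93 FPKM in T2DM and at 13.5, 13.5 and 12.6 FPKM in vehicle libraries. The groups were far apart in relation to their spread, with a log2 fold change of -1.20 (standard error 0.088, limma adjusted p = 0.00188). It passed in all alternatives tried but the model without moderation of the variance, where its adjusted p was 0.0522. Hist2h3b was at 0.869, 0.578 and 1.71 FPKM in T2DM and at 3.14, 2.97 and 2.15 FPKM in vehicle libraries (-0.90, limma adjusted p = 0.0364), a call that was kept with 1 library left out only without T2DM replicate 3. Hist2h3c1 was at 1.81, 3.43 and 2.89 FPKM in T2DM and at 2.71, 3.82 and 4.45 FPKM in vehicle libraries (-0.34, limma adjusted p = 0.281), with overlap. These Hist2 genes share sequence, 77.1% of the 100-base stretches of Hist2h3b and 61.6% of those of Hist2h3c2 being found in another gene, and Hist2h3c1 lies wholly within exons of Gm20634. Their sum was 8.22, 9.11 and 9.53 FPKM in T2DM and 19.3, 20.3 and 19.2 FPKM in vehicle libraries (ratio 0.456), without overlap. Hist1h3d and Hist1h3e were tested and did not pass, at log2 fold changes of -0.49 and -0.41, and Hist1h3f stayed under the filter.

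H4 was the class with the most genes lower in T2DM, 4 of 9 tested. Hist1h4m was at 0.238, 0.311 and 0.546 FPKM in T2DM and at 3.43, 1.92 and 2.53 FPKM in vehicle libraries, a log2 fold change of -1.40 (standard error 0.17, limma adjusted p = 0.0123). Hist2h4 was at 0.444, 1.30 and 0.684 FPKM in T2DM and at 4.25, 3.61 and 2.92 FPKM in vehicle libraries (-1.36, limma adjusted p = 0.0153). Hist2h4 shares no 100-base stretch with another gene. Shorter shared stretches were not searched, and how reads were divided between H4 genes was not tested. Hist1h4j was at 0.950, 1.01 and 0.401 FPKM in T2DM and at 3.80, 2.23 and 3.37 FPKM in vehicle libraries (-1.21, limma adjusted p = 0.0186). Hist1h4h, the most abundant H4 gene, was at 7.91, 7.37 and 9.39 FPKM in T2DM and at 12.1, 13.7 and 12.2 FPKM in vehicle libraries (-0.57, limma adjusted p = 0.0245). In each of these 4 genes the lowest vehicle library stood above the highest T2DM library. Hist1h4m is nearly a copy of Hist1h4n, and together they were at 0.891 ± 0.455 FPKM in T2DM and 3.93 ± 0.60 FPKM in vehicle (SD, n = 3 each, ratio 0.227).

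The other tested H4 genes, which encode the same core histone, did not pass the test. Hist1h4i was at 3.66 ± 0.20 FPKM in T2DM and 3.77 ± 0.90 FPKM in vehicle (SD, n = 3 each), a log2 fold change of -0.02 (standard error 0.14, limma adjusted p = 0.932). Hist1h4b, the only tested H4 gene with a positive fold change, was at 0.497, 0.876 and 0.675 FPKM in T2DM and at 0.846, 0.381 and 0.519 FPKM in vehicle libraries (0.09, limma adjusted p = 0.680). Hist1h4d, Hist1h4k and Hist1h4n had log2 fold changes of -0.38, -0.52 and -0.60 and did not pass, and Hist1h4c was under the filter.

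**Figure D4:**
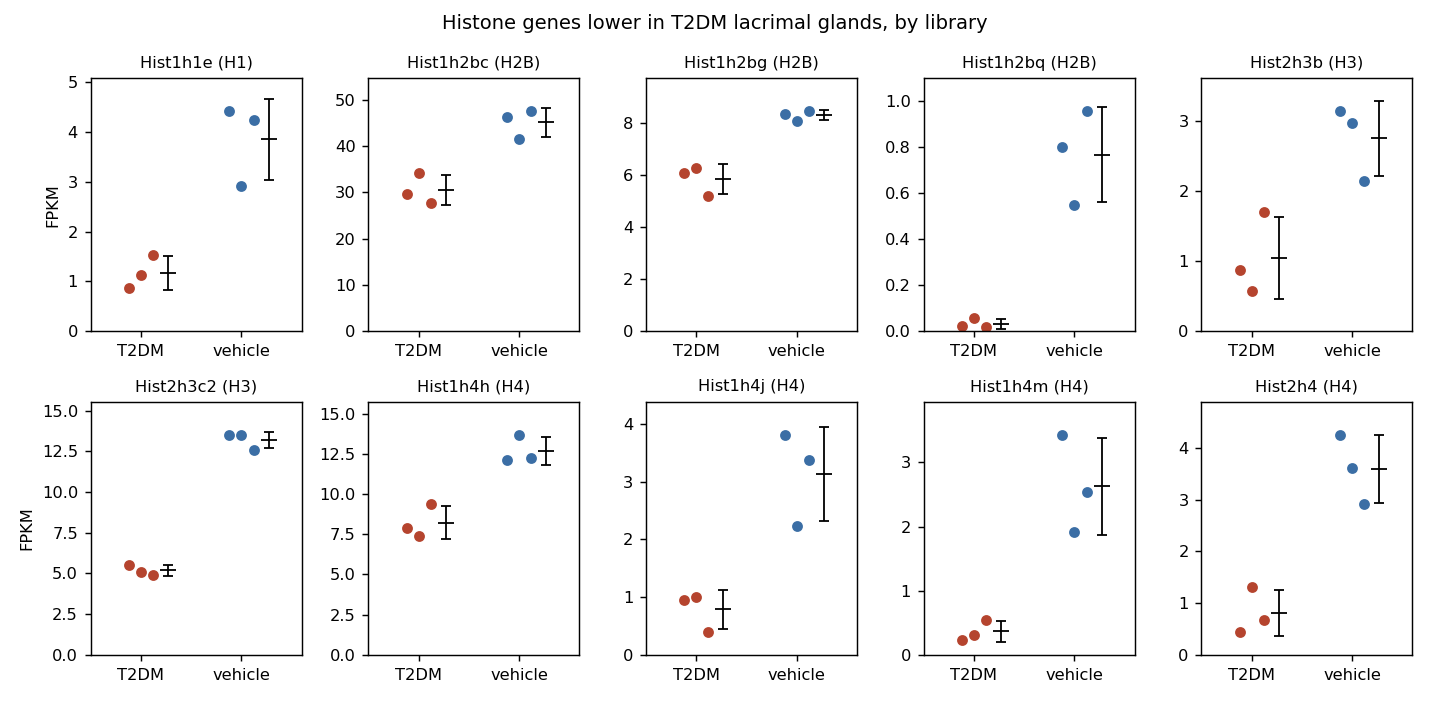
FPKM of the 10 histone genes lower in T2DM at an adjusted p of 0.05, with 1 panel per gene and its own vertical axis from 0. Red points are T2DM libraries, blue points vehicle libraries, and the bars give the mean and SD (n = 3). The groups do not overlap in any of the 10, and levels range from under 1 FPKM in Hist1h2bq to 47.5 FPKM in Hist1h2bc.

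Genes lower in T2DM were found at high and at low levels. Among members with a mean of at least 5 FPKM over all libraries, 4 of 9 tested were lower (median log2 fold change -0.44), and among those under 5 FPKM, 6 of 26 (median -0.39). Of all tested genes at any level, 1.7% were lower. The pseudocount of 1 shrinks the fold changes of low genes, so that medians at different levels cannot be compared. With a pseudocount of 0.1 the median of all tested members went from -0.41 to -0.72. Read by the annotated end of the transcript, 2 of the 13 tested genes whose transcript stops within 100 bases of the stem-loop were lower (median -0.17). Of the 15 whose transcript runs on for more than 100 bases 5 were lower (median -0.41), and of the 7 without a stem-loop match in the transcript 3 were lower (median -0.55). Genes of the second kind summed to 48.5 ± 2.1 FPKM in T2DM and 79.9 ± 7.0 FPKM in vehicle (SD, n = 3 each), whereas those of the first kind, which hold Hist2h2aa1 and Hist2h2aa2, overlapped at 205.1 ± 11.4 and 181.5 ± 36.0 FPKM. The 3 kinds differ in class and level as well, and the difference between them was not tested. The 7 without a match include spliced transcripts, such as that of Hist1h2bc, and short ones that may be annotated to stop before the stem-loop. Examples of the latter are Hist1h4k at 312 bases and Hist1h2bn at 381 bases. Hist2h2be, also among the 7, has an unspliced transcript of 2620 bases. No match to the pattern does not show that a stem-loop is absent. Annotated transcript ends do not show which ends were used in these libraries.

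Many H2A and H2B genes point away from each other across a short shared promoter. Of the members, 7 such pairs start within 1000 bases of each other on opposite strands. In 5 pairs both genes were tested, and Hist1h2ao with Hist1h2bq, whose starts are 268 bases apart, differed most in its log2 fold changes. Hist1h2ao was at 3.26 ± 0.83 FPKM in T2DM and 2.52 ± 0.72 FPKM in vehicle (0.28 on the log2 scale, limma adjusted p = 0.337), whereas Hist1h2bq, given above, was lower in T2DM. Its duplicate, Hist1h2ap with Hist1h2br, had log2 fold changes of 0.30 and -0.36, neither past the test. Of the 100-base stretches of Hist1h2ao 92.7% occur in Hist1h2ap, and of those of Hist1h2bq 94.8% occur in Hist1h2br. Most reads thus fit both copies, and how they were divided between the copies was not tested. Hist1h2ad and Hist1h2bf had log2 fold changes of -0.41 and -0.42, Hist1h2ac and Hist1h2bc of -0.30 and -0.55, and Hist2h2ac and Hist2h2be of 0.27 and 0.34.

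The 300 bases around the start of Hist1h2bq are given to show the shared promoter, and that of Hist1h4m to show an H4 promoter of a gene lower in T2DM. Both are from RefSeq on GRCm38.p6, in which 39 of the 43 genes were matched. Hist1h2bq, chr13:21810150-21810449, minus strand, has CCAAT or its reverse complement ATTGG in capitals, and Hist1h4m, chr13:21811496-21811795, plus strand, has TATAAA in capitals.
Hist1h2bq: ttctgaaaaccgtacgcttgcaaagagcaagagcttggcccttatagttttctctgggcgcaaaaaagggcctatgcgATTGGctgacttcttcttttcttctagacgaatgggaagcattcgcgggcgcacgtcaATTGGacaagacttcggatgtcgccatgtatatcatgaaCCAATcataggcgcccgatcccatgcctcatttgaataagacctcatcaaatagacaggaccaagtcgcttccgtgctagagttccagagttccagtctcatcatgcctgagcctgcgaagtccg
Hist1h4m: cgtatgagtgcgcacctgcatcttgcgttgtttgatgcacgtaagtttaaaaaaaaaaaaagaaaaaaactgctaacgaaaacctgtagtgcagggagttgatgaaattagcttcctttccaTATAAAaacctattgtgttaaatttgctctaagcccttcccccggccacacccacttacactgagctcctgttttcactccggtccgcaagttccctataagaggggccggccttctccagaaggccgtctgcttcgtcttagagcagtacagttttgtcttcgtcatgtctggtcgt
CCAAT, searched on both strands, was found in all 3 H1, 13 H2A, 9 H2B and 5 H3 promoters, in 2 of 9 H4 promoters and in 37.4% of all 32817 promoters of this length. TATAAA, also on both strands, was in 2 H1, 7 H2A, 5 H2B, 1 H3 and 6 H4 promoters and in 13.6% of all. The octamer ATTTGCAT was in 5 H2A and 3 H2B promoters and in 1.7% of all. Genes lower in T2DM were found both among those with CCAAT, such as Hist1h1e and Hist2h3c2, and among those without, such as Hist1h4m and Hist1h4j. A match describes letters only and no factor was measured.

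Replacement histones are also made outside S phase. Of 11 such genes 10 were tested, and 1 was higher and none lower in T2DM, a share near the 10.5% of all tested genes that were higher, with a median log2 fold change of 0.10 against 0.16 over all genes. H3f3a, which encodes the replacement histone H3.3, was at 54.5, 54.9 and 48.8 FPKM in T2DM and at 43.1, 42.9 and 40.5 FPKM in vehicle libraries (0.31, limma adjusted p = 0.0497). This call was lost under both rescalings of the libraries. H3f3b, the second gene for the same protein, was at 154.3 ± 17.0 FPKM in T2DM and 129.1 ± 13.2 FPKM in vehicle (SD, n = 3 each, 0.26 on the log2 scale). The variants H2afz and H2afv, which replace H2A in nucleosomes at many promoters, had log2 fold changes of 0.34 and 0.37 with limma adjusted p of 0.0866 and 0.0994.

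Genes that make, trim and degrade histone mRNA were next considered. Of 17 listed genes 16 were tested, 1 was higher and none was lower, a smaller share than the 10.5% of all tested genes that were higher. At an unadjusted p of 0.05, 8 were higher and none lower, a larger share than the 28.5% of all tested genes that were higher. The median log2 fold change was 0.23 against 0.16, and 2 of the 16 were below 0. The gene past the test was Zcchc11, a uridylyltransferase that marks RNA for decay, at 2.40 ± 0.25 FPKM in T2DM and 1.38 ± 0.32 FPKM in vehicle (SD, n = 3 each, 0.52 on the log2 scale, limma adjusted p = 0.0415). Npat, the coactivator of histone gene transcription, was at 2.96 ± 0.27 FPKM in T2DM and 2.18 ± 0.16 FPKM in vehicle (limma adjusted p = 0.0788). Sympk and Cpsf2, parts of the complex that cleaves histone pre-mRNA, had log2 fold changes of 0.32 and 0.26 and did not pass. Of 16 polyadenylation and cleavage factors none passed in either direction by limma. At an unadjusted p of 0.05, 4 were higher and 1 lower, against 28.5% and 4.57% of all tested genes. Cstf1 and Cstf3, subunits of the cleavage stimulation factor, had log2 fold changes of 0.27 and -0.31, and Cpsf1 and Wdr33, of the cleavage and polyadenylation specificity factor, 0.47 and 0.25.

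Of 19 histone chaperones, which carry and deposit histones, 2 were higher and none was lower, the same share as the 10.5% of all tested genes, with a median log2 fold change of 0.08 against 0.16. Cabin1, a subunit of the H3.3 chaperone complex HIRA, was at 3.48 ± 0.32 FPKM in T2DM and 2.28 ± 0.011 FPKM in vehicle (SD, n = 3 each, 0.44 on the log2 scale, limma adjusted p = 0.0318). Npm1, nucleophosmin, was at 85.7 ± 4.9 FPKM in T2DM and 67.7 ± 3.9 FPKM in vehicle (0.33, limma adjusted p = 0.0451). Asf1a and Ssrp1, an H3-H4 chaperone and a FACT subunit, both had a log2 fold change of 0.31 and did not pass. The calls of Zcchc11, Cabin1 and Npm1, like that of H3f3a, were not made after either rescaling of the libraries, which moved the median of all genes to 0.00 and 0.02. The members' median then was -0.48 with the median of ratios, 14 of the 36 histone genes tested were lower, and all 10 named above were among them. Over all genes, the number lower went from 206 to 481 with the same scaling.

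Markers of dividing cells were listed because replication-dependent histones are made in S phase. Of 36 tested genes of S phase and DNA replication none passed by limma, with 7 lower and 1 higher at an unadjusted p of 0.05. At that p, 4.57% of all tested genes were lower and 28.5% higher. In this list 25 of the 36 were below 0, against 25.2% of all tested genes, and the median log2 fold change was -0.10 against 0.16. Rrm2, a subunit of the reductase that supplies nucleotides for replication, was at 3.93, 4.92 and 5.95 FPKM in T2DM and at 6.39, 8.58 and 9.10 FPKM in vehicle libraries (-0.61, limma adjusted p = 0.0525). Cdc45, of the replicative helicase, and Uhrf1, which recruits the maintenance DNA methyltransferase, had log2 fold changes of -0.65 and -0.56 and did not pass. Dnmt1, that methyltransferase, had a log2 fold change of 0.36 and did not pass. Of 17 tested genes of G2 and mitosis 2 were lower, and all 17 were below 0, with a median of -0.39, against 1.7% lower and 25.2% below 0 of all tested genes. Cenpm, a centromere protein, was at 1.07, 1.17 and 0.560 FPKM in T2DM and at 2.30, 1.98 and 2.70 FPKM in vehicle libraries (-0.79, limma adjusted p = 0.0252). Ncaph, a condensin subunit, was at 0.936 ± 0.231 FPKM in T2DM and 2.09 ± 0.59 FPKM in vehicle (SD, n = 3 each, -0.66, limma adjusted p = 0.0414). Cdk1, the kinase that drives entry into mitosis, and Cenpe, a kinetochore motor, had log2 fold changes of -0.54 and -0.35 and did not pass. Cenpe averaged 0.373 FPKM in T2DM and 0.757 FPKM in vehicle, so that it reached the filter of 0.5 FPKM in vehicle only. Such entry favours lower values among the 17 tested of the 20 listed genes, and the direction of the untested genes is not given here.

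The libraries did not rank alike in the histone and the cell cycle lists. G2 and mitosis genes summed to 18.2, 18.0 and 22.2 FPKM in T2DM and to 18.3, 36.4 and 45.4 FPKM in vehicle libraries, so that vehicle replicate 1 lay within the T2DM range. S-phase genes summed to 96.0, 99.9 and 93.5 FPKM in T2DM and to 93.4, 107.2 and 131.5 FPKM in vehicle libraries, again with vehicle replicate 1 at the T2DM level. In the same library the H4 genes summed to 33.1 FPKM, the highest of the 6 libraries, and the H3 genes to 22.3 FPKM, near the other vehicle libraries. Without vehicle replicate 1, 6 genes of G2 and mitosis and 2 of S phase were lower in T2DM, whereas none of either list was lower without T2DM replicate 1, vehicle replicate 2 or vehicle replicate 3. Without T2DM replicate 2 or 3, 1 and 2 genes of G2 and mitosis and 1 of S phase in each fit were lower. Over all genes, 206 were lower with every library kept and 102 without vehicle replicate 1. That number was 75, 54 and 16 without T2DM replicate 1, vehicle replicate 2 or vehicle replicate 3, and 130 and 123 without T2DM replicate 2 or 3. The loss of calls in these lists thus came with a loss over all genes. The part of cell division in the histone difference was not tested.

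**Figure D5:**
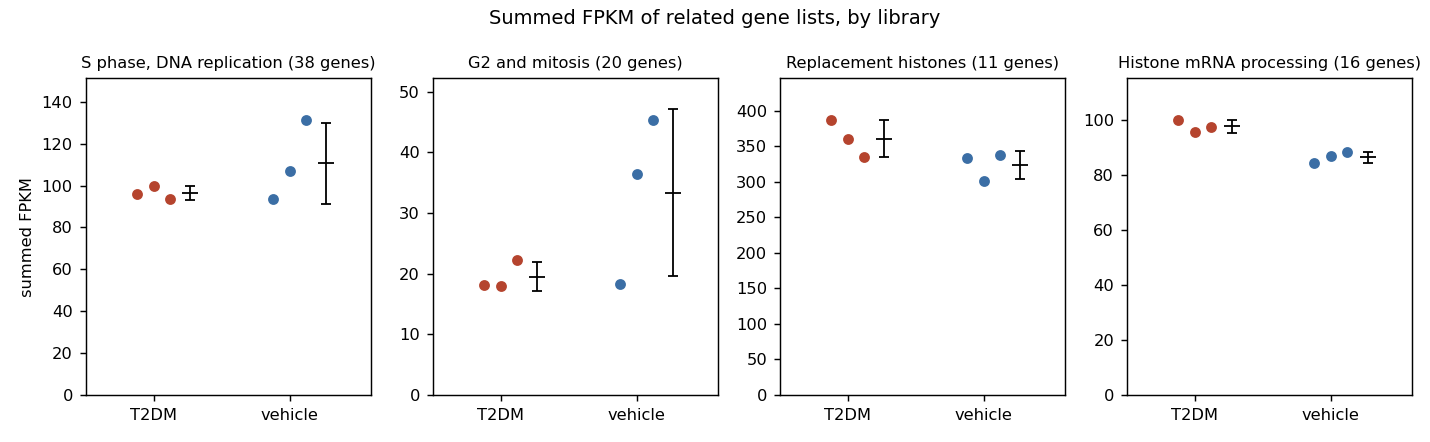
Summed FPKM in each library (vertical axes from 0) of genes of S phase and DNA replication, of G2 and mitosis, of replacement histones and of histone mRNA processing. Red points are T2DM libraries, blue points vehicle libraries, and bars give mean and SD (n = 3). Vehicle replicate 1 lies within the T2DM range for G2 and mitosis at 18.3 FPKM, and the processing genes sum to 95.6 to 100.2 FPKM in T2DM libraries, above the vehicle libraries at 84.4 to 88.4 FPKM. Every T2DM library was also above every vehicle library in 33.8% of all tested genes. The sums are of FPKM without rescaling, so that this order is not particular to the processing genes.

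Markers of the cell types of the gland were read beside the share of all tested genes past the test, 10.5% higher and 1.7% lower. The acinar genes Obp1a, Aqp5 and Bhlha15 were detected in all 6 libraries, and of 11 acinar markers 3 were lower and 1 was higher in T2DM. Wfdc12, Esp24 and Lcn11, secreted products of the gland, were lower, at 917.1 ± 142.2, 176.1 ± 102.8 and 1493 ± 207 FPKM in T2DM and 1788 ± 174, 664.5 ± 94.2 and 2311 ± 237 FPKM in vehicle (SD, n = 3 each). Slc12a2, a chloride cotransporter, was higher, at 54.7 ± 16.2 FPKM in T2DM and 21.1 ± 2.4 FPKM in vehicle. Of 9 duct markers 7 were higher in T2DM, with sums of 854.5 to 1086 FPKM in T2DM and 591.2 to 646.6 FPKM in vehicle libraries. Of 9 markers of B and plasma cells 3 were higher (sums of 518.3 to 569.9 FPKM in T2DM and 296.0 to 419.1 FPKM in vehicle), and of 5 erythroid markers 3 were lower (196.4 to 316.9 FPKM in T2DM and 350.7 to 419.1 FPKM in vehicle). In T2DM 1 gene each was higher of 8 T and NK cell markers and of 9 macrophage and neutrophil markers, shares near that of all genes. These counts depended on the libraries and the scaling. With 1 library left out, the duct markers higher numbered 2 to 7, with 2 without vehicle replicate 2 or 3. The B and plasma cell markers numbered 1 under both rescalings and 0 without vehicle replicate 3, and the erythroid markers lower numbered 0 without T2DM replicate 2 or 3 or any 1 vehicle replicate and 4 without T2DM replicate 1. Salivary gland markers summed to 15.0 to 30.6 FPKM in T2DM libraries and to 2324, 22.0 and 15.3 FPKM in vehicle replicates 1, 2 and 3, so that vehicle replicate 1 stood apart. Without that library 7 histone genes were lower in T2DM. The part of cell makeup in the histone difference was not tested.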

How the data were processed

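RNA-seq of 3 T2DM and 3 vehicle mouse LG samples, grouped by their labels, was analysed. The authors trimmed reads with cutadapt, aligned them with HISAT2 to GRCm38 and estimated abundance with StringTie 1.2.3, from which they deposited gene-level FPKM computed with Ballgown 2.6.0, without further scaling stated. The submitters' processing notes name human builds (hg19, GRCh37), but all 43 histone genes start and end as in GENCODE M21 on GRCm38. FPKM hold no read numbers, so that the depth is unknown, and a change in very abundant genes shifts all others.

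Of 12491 genes, the 12135 that averaged 0.5 FPKM or more in either group entered the test (R 4.3.3, limma 3.58.1, pseudocount of 1, mean-variance trend, two-sided, no covariate, Benjamini-Hochberg adjustment). Fold changes on the log2(FPKM + 1) scale understate the change of low genes. Means and SDs are of FPKM. The test was first tested on simulated data. Histone classes, sums, shared 100-base stretches and stem-loops were computed with Python 3.11.15, and promoters came from RefSeq.

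Members and gene lists were chosen with earlier results of these data known. Values per library are given for members past the test, for the most abundant member and the largest positive and negative fold change of each class, and list members by smallest p. Hist1h4i, Hist3h2a and others outside this rule were named after their values were seen. Alternatives were other filters, pseudocounts, scalings, variance models, a replicate block, leaving out each library and summing near-identical genes.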

Additional observations from a re-analysis of the deposited data

How the results depend on the processing

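None of the 10 histone genes past the test changed direction under the alternatives tried, and other genes were not followed one by one, whereas the ratio of the Hist2 sums, which carries no test, crossed 1 under both rescalings. The 10 histone genes lower in T2DM numbered 6 with the replicate number as a block and 0 with the unmoderated linear model, in which 17 were lower and none higher at an unadjusted p of 0.05. Leaving out 1 library gave 1 to 11 lower and 0 to 1 higher, and at the thresholds of the study 7 to 12 and 0 to 1. Those thresholds gave 15 lower with a pseudocount of 0.1 and 13 under both rescalings (median of ratios, upper quartile), and 1 higher with pseudocounts of 0.1 and 0.5. Over all genes, 1271 were higher and 206 lower, against 478 and 481 with the median of ratios, 509 and 427 with the upper quartile, 551 and 98 with the block, 0 and 0 without moderation, and 25 to 886 and 16 to 130 with 1 library left out. Replicate numbers did not pair the samples, with correlations of 0.032, 0.016 and -0.0022 between the deviations of same-numbered libraries.

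Genes higher among replacement variants were 0 under both rescalings, without the trend, without moderation and with the block, and 0 to 1 with 1 library left out. Of the processing genes 0 were higher under both rescalings, without moderation, with the block and with any 1 library left out. Of the chaperones 0 were higher under both rescalings, without moderation and with the block, 1 without the trend and 0 to 1 with 1 library left out. Of polyadenylation factors 1 was lower under both rescalings. S-phase genes lower were 1 with a filter of 1 FPKM, 2 with the median of ratios, 1 with the upper quartile, 1 with the block and 0 to 2 with 1 library left out. G2 and mitosis genes lower were 1 with the block, 0 without moderation and 0 to 6 with 1 library left out. Ratios of sums with the median of ratios were 0.814 for all members, 0.696 for H2B, 0.468 for H4 and 0.580 for Hist1, and with the upper quartile 0.825 for all and 0.588 for Hist1. With 1 library left out they spanned 0.890 to 0.992 for all, 0.585 to 0.701 for H1, 1.06 to 1.30 for H2A, 0.771 to 0.846 for H2B, 0.433 to 0.497 for H3, 0.517 to 0.566 for H4, 0.632 to 0.692 for Hist1, 1.002 to 1.208 for Hist2 and 0.892 to 1.02 for Hist3. Summing near-identical genes, chosen after seeing the data, left 9 histone genes or sums lower. The cause of these shifts was not tested.

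Limits are the 3 libraries per group, the poly(A) selection, which leaves total histone mRNA unmeasured, FPKM without read numbers, and near-identical copies whose reads cannot be told apart.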
